A study of Mus musculus with 16 samples.

Results

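MHC class I molecules present peptides from inside the cell on its surface, and 10 genes of that route were examined in sorted mouse brain endothelial cells (bECs). The genes were found by symbol in the deposited count table: the heavy chains H2-K1 and H2-D1, the light chain B2m, the peptide transporter Tap1 and Tap2, tapasin (Tapbp), the immunoproteasome subunits Psmb8, Psmb9 and Psmb10, and the transcriptional activator Nlrc5. Each had 1 row, so the 10 genes make up 10 of 37003 rows, and all 10 were among the 31085 genes left by the filter on low counts. RNA came from living CD45-negative, CD31-positive cells taken by flow cytometry 72 hours after surgery. Mice had received either a sham operation or a 30-minute occlusion of the middle cerebral artery followed by reperfusion (MCAo). YT-iKO mice carried Pdgfb-iCreERT2 (Pdgfb-iCreER-eGFP in the methods), a tamoxifen-inducible Cre under the Pdgfb promoter, which is active in endothelial cells, with floxed Yap and floxed Wwtr1 (the gene of TAZ). CTRL littermates had the same floxed alleles without the Cre transgene, and adult mice of both genotypes and both sexes received tamoxifen before surgery. Each genotype and operation made 1 group, and the 4 groups had 4 libraries each. The methods describe dissection of sham tissue, or of the ischemic territory of the artery and the matching area of the other hemisphere. They do not state which side went into the libraries. Every library was a pool of brain tissue from several mice, so p-values measure the spread between pools. The comparisons ask whether stroke changed these genes in either genotype, whether loss of YAP and TAZ changed them after either operation, and whether the stroke response differed between genotypes.

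Class I molecules consist of a heavy chain and beta-2-microglobulin, and they reach the surface only after a peptide has been loaded in the endoplasmic reticulum. Peptides are cut in the cytosol by the proteasome, whose catalytic subunits can be replaced by interferon-inducible ones to form the immunoproteasome, and are moved into the endoplasmic reticulum by TAP, where tapasin holds TAP and the empty class I molecule together. NLRC5 switches on many genes of the route, and interferons raise most of them. In the brain, endothelial cells are among the cell types with the highest class I expression at rest, whereas neurons and glia express little.

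The promoters of the genes are shown first because the route is known for shared control by a common set of elements. RefSeq start sites on GRCm38.p6 were found for 8 of the 10 genes. Tap2 and Nlrc5 had none in the table used. The 250 bases before the start are printed 5′ to 3′ in the direction of transcription for both heavy chains, the light chain and Tap1. Capitals mark every match, on either strand, to 1 of 6 motifs.
H2-K1, chr17:34000348-34000597, minus strand: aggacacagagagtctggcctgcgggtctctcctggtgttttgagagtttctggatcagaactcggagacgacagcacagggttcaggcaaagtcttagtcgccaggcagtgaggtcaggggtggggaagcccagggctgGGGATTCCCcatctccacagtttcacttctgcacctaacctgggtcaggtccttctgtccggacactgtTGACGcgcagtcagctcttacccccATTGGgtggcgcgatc
H2-D1, chr17:35262844-35263093, plus strand: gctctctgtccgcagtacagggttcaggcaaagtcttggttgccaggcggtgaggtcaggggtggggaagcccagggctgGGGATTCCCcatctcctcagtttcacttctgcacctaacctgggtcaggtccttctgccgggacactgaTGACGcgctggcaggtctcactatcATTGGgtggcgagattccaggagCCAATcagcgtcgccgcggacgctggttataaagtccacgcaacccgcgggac
B2m, chr2:122147437-122147686, plus strand: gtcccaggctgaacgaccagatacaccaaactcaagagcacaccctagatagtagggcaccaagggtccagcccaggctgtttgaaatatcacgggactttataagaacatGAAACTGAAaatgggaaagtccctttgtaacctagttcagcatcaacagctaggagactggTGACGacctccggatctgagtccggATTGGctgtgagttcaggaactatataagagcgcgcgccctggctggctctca
Tap1, chr17:34187306-34187555, plus strand: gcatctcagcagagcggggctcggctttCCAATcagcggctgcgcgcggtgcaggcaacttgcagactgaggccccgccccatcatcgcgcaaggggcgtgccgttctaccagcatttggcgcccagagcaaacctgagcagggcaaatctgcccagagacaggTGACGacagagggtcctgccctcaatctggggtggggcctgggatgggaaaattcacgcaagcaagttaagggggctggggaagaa

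The motifs were GAAANNGAA, a core of interferon-stimulated response elements, TTCNNNGAA, the core of STAT sites, and GGGANTNCC, a form of the NF-kappaB site. CCAAT, which NF-Y binds, TGACG, part of a cyclic AMP response element, and GGAATG, the site of the TEAD partners of YAP and TAZ, completed the set. Of the same 250 bases of 32817 RefSeq promoters, 7.12% held the first, 7.01% the second, 3.36% the third, 33.8% CCAAT, 17.7% TGACG and 12.6% GGAATG. Both heavy chain promoters held the NF-kappaB form as GGGATTCCC, at positions −110 to −102 before the first of the 2 annotated H2-K1 starts, which lie 14 bases apart, and at −170 to −162 in H2-D1. With these 2 matches in register, 166 of 190 bases (87.4%) were identical between the genes. B2m held GAAACTGAA at −139 to −131. In H2-K1, H2-D1 and B2m alike, TGACG was followed after 20 bases by ATTGG, the reverse complement of CCAAT. This pair at this spacing was noticed after the sequences were printed, and 30 of the 32817 promoters (0.0914%), of 26 genes, held it on either strand, among them that of the class I gene H2-M3. Tap1 and Psmb9 are transcribed away from each other, and their windows share 225 bases, in which the Tap1 window has its TGACG and the Psmb9 window the same bases as CGTCA. Of the 8 genes with a promoter, 6 held CCAAT and 5 held TGACG. The GAAANNGAA form was found only in B2m among them, and TTCNNNGAA only in Psmb8. Psmb10 had no match to any motif, and GGAATG was in none of the 8 windows. A match is a description of the letters and no measurement of binding, and a missing match says only that these letters are not in this window.

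Libraries held 11418262 to 23074547 counts, and the 10 genes had between 254 (Psmb8) and 21729 (H2-D1) counts in a library. The libraries were amplified and carry no molecular identifiers, so reads are not independent molecules. Endothelial identity was clear from Pecam1, which encodes CD31, at 622 to 1932 CPM and Cldn5 at 592 to 1923 CPM. The 11 leukocyte, microglia and macrophage markers summed to 9.60 to 44.96 CPM, and Ptprc (CD45) had 0.374 to 10.1 CPM. Pericyte markers summed to 478 to 1462 CPM. In YT-iKO bECs, Yap1 had 38.6 to 59.2 CPM after sham and 37.1 to 63.0 after MCAo, against 111 to 112 and 80.5 to 133 in CTRL. Wwtr1 had 45.03 to 95.9 and 60.7 to 136 CPM in YT-iKO, and 253 to 276 and 235 to 438 in CTRL, so neither gene overlapped between genotypes, although counts cover all exons and not only the floxed ones. Libraries also differed in counts on olfactory and vomeronasal receptor genes, known from sensory neurons, which summed to between 156 (YT-iKO MCAo replicate 4) and 2909 (YT-iKO MCAo replicate 2) CPM before scaling. TMM scaling factors from all genes tested ran from 0.743 to 1.40, whereas factors computed over the 9132 genes averaging 10 CPM or more (well-expressed genes) ran from 0.938 to 1.04. All CPM are on the first scale unless that of well-expressed genes is named.

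B2m had the highest level per exon length of the 10 genes. Over the 16 libraries it had 614 ± 187 CPM per kilobase of exon (SD), followed by H2-D1 with 318 ± 105 and H2-K1 with 156 ± 40.7. These values put B2m 25th, H2-D1 46th and H2-K1 100th among 30968 genes with a known exon length. Tapbp stood at 44.4 ± 10.6 CPM per kilobase, and Psmb10 at 16.05 ± 3.75. The transporter subunits and the activator were close to each other, with 13.9 ± 3.15 CPM per kilobase for Tap2, 13.2 ± 3.64 for Nlrc5 and 12.6 ± 2.93 for Tap1. Psmb8 (8.14 ± 2.02) and Psmb9 (6.34 ± 1.23) were lowest. From B2m down to Psmb10 the order was the same in 16 of 16 libraries. Tap2 was above Nlrc5 in 9 of 16 libraries and Nlrc5 above Tap1 in 10 of 16, so neither of these neighbours differed beyond its spread, while Tap2 was above Tap1 in 13 of 16. Exon length is the union of all annotated exons, which lowers the value of genes with long minor transcripts.

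**Figure D1:**
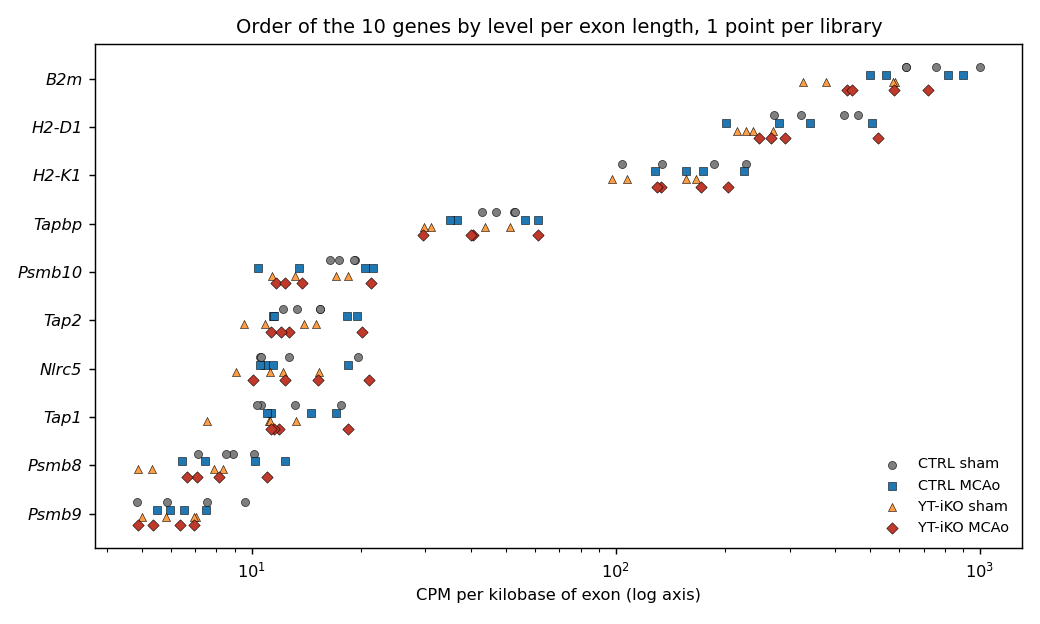
CPM per kilobase of exon (log axis) of the 10 genes, 1 point per library, with the 4 groups as colours and shapes and genes in order of their mean. B2m lies highest with a mean of 614 and Psmb9 lowest with 6.34, and within each gene the groups overlap, except that the YT-iKO sham and CTRL sham libraries of H2-D1 and B2m do not.

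H2-K1 and H2-D1 encode the heavy chains that hold the peptide. H2-K1 (ENSMUSG00000061232) lies on chromosome 17 from 33996017 to 34000347 of GRCm38, on the minus strand. It had 305, 393, 669.5 and 548 CPM in CTRL sham and 663, 377, 459 and 509 CPM in CTRL MCAo, each in order of replicate. In YT-iKO it had 458, 315, 287 and 488 CPM after sham, and after MCAo 504, 391, 380.4 and 599 CPM. CTRL sham replicates 3 and 1 were the highest and lowest of their group, and all 4 groups overlapped. The log2 fold change of H2-K1 was 0.07 (SE 0.28) for MCAo in CTRL, 0.28 (SE 0.28) for MCAo in YT-iKO, −0.31 (SE 0.28) for YT-iKO against CTRL after sham and −0.10 (SE 0.28) after MCAo.

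H2-D1 (ENSMUSG00000073411; chromosome 17, 35262730 to 35267499, plus strand) had 833, 1092, 1189.8 and 702 CPM in CTRL sham and 879.7, 516, 725 and 1306 CPM in CTRL MCAo. Values in YT-iKO were 613, 556, 587 and 695 CPM for sham, and for MCAo 752, 636, 687 and 1354 CPM. After sham, every YT-iKO library was below every CTRL library, although the highest of the one and the lowest of the other were close, and replicate 4 was the highest library after MCAo in both genotypes. Group means were 954 ± 226 CPM (SD, n = 4) in CTRL sham and 613 ± 59.6 in YT-iKO sham, a log2 fold change of −0.64 with a 95% confidence interval of −1.26 to −0.02. This gave an unadjusted p of 0.0439 but an adjusted p of 0.990 by edgeR's quasi-likelihood test. For the other comparisons it was −0.16 (SE 0.30) for MCAo in CTRL, 0.48 (SE 0.30) for MCAo in YT-iKO and 0.00 (SE 0.30) for genotype after MCAo. On the scale of well-expressed genes the sham groups overlapped, with 779, 1021, 1089 and 670.0 CPM in CTRL and 552, 516, 787 and 732 CPM in YT-iKO, and the log2 fold change was −0.46. The 2 heavy chains are close copies, and reads that match both could have been split or dropped in the counting, which the sources used here do not describe. Per exon length, the ratio of H2-K1 to H2-D1 was 0.454 ± 0.175 after sham and 0.550 ± 0.146 after MCAo in CTRL, and 0.550 ± 0.105 and 0.500 ± 0.0856 in YT-iKO (mean ± SD, n = 4), and this ratio overlapped in every comparison.

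B2m (ENSMUSG00000060802; chromosome 2, 122147686 to 122153083, plus strand) encodes beta-2-microglobulin, which every class I heavy chain needs to fold. It had 539, 652, 862 and 538 CPM in CTRL sham and 702, 428, 474 and 773 in CTRL MCAo. In YT-iKO the values were 502, 282, 325 and 497 CPM for sham, and for MCAo 372, 384, 499 and 618 CPM. As for H2-D1, the 4 YT-iKO sham libraries lay below the 4 CTRL sham libraries, and no other pair of groups was separate. CTRL averaged 648 ± 153 CPM after sham (SD, n = 4) and YT-iKO averaged 401 ± 115, a log2 fold change of −0.69 with a 95% confidence interval of −1.26 to −0.12 (unadjusted p = 0.0204, adjusted p = 0.990 by edgeR). With 4 libraries against 4, the exact two-sided permutation test gave 0.0286, its smallest possible p, for B2m and H2-D1 alike. On the scale of well-expressed genes, B2m overlapped between the sham groups (503, 609, 789 and 513 CPM against 452, 261, 436 and 523). There its log2 fold change was −0.53, with an unadjusted p of 0.0219 by edgeR and an exact permutation p of 0.0857. For H2-D1 the unadjusted p by edgeR on that scale was 0.0418 and the exact permutation p was 0.143. Leaving out 1 library at a time gave log2 fold changes of −0.82 to −0.52 for B2m and −0.75 to −0.51 for H2-D1, in each case nearest 0 without CTRL sham replicate 3. The log2 fold change of B2m was −0.12 (SE 0.27) for MCAo in CTRL, 0.22 (SE 0.27) for MCAo in YT-iKO and −0.34 (SE 0.27) for genotype after MCAo. In bulk RNA, fewer cells with a transcript and less of it per cell cannot be told apart.

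Tap1 and Tap2 are the 2 subunits of the transporter that carries peptides into the endoplasmic reticulum, and their loci lie close together on chromosome 17 (Tap1, ENSMUSG00000037321, 34187553 to 34197225; Tap2, ENSMUSG00000024339, 34203527 to 34216321; both plus strand). Tap1 had 58.0, 56.7, 96.5 and 71.9 CPM in CTRL sham and 79.5, 61.9, 60.4 and 93.2 in CTRL MCAo. After sham and MCAo in YT-iKO it had 61.2, 61.3, 41.3 and 72.5 CPM and 65.0, 62.9, 61.8 and 100.8 CPM, respectively. CTRL sham replicate 3 and YT-iKO MCAo replicate 4 stood above the rest of their groups, YT-iKO sham replicate 3 below, and no groups were separate. Tap2 had 46.0, 50.3, 58.4 and 58.1 CPM in CTRL sham and 69.1, 43.2, 43.5 and 73.6 in CTRL MCAo. Its YT-iKO values were 56.8, 52.7, 36.1 and 41.0 CPM for sham, and for MCAo 47.7, 42.6, 45.5 and 75.8 CPM. CTRL MCAo fell into a higher pair (replicates 1 and 4) and a lower pair (2 and 3), and again all groups overlapped. The log2 fold change of Tap1 was 0.06 (SE 0.24) and 0.30 (SE 0.24) for MCAo in CTRL and YT-iKO, and −0.26 (SE 0.24) and −0.02 (SE 0.24) for genotype after sham and MCAo. That of Tap2 was 0.11, 0.18, −0.19 and −0.12 in the same order (SE 0.23 each). Tap1 shares 212 exon bases with Psmb9 and Tap2 shares 533 with Gm15821, each on the opposite strand, and without a known strand setting such reads cannot be assigned.

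Tapbp encodes tapasin, which holds class I molecules at the transporter and edits their peptides (ENSMUSG00000024308; chromosome 17, 33915899 to 33929292, plus strand). It had 156, 169.7, 190.4 and 191 CPM in CTRL sham and 204, 133, 127 and 221 in CTRL MCAo. The sham libraries of YT-iKO had 185, 112, 108 and 159 CPM and the MCAo libraries 147, 107, 145 and 222 CPM. CTRL sham was the tightest group, with a coefficient of variation of 9.77%, and the other 3 groups each overlapped it and spread more widely. The log2 fold change was −0.05 (SE 0.25) and 0.14 (SE 0.25) for MCAo in CTRL and YT-iKO, and −0.33 (SE 0.25) and −0.14 (SE 0.25) for genotype after sham and MCAo. Zbtb22 shares 149 exon bases with Tapbp on the same strand.

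The immunoproteasome subunits replace catalytic subunits of the standard proteasome: Psmb8 takes the place of Psmb5, Psmb9 that of Psmb6 and Psmb10 that of Psmb7. Psmb8 (ENSMUSG00000024338; chromosome 17, 34197721 to 34201454, plus strand) had 24.1, 30.0, 34.2 and 28.7 CPM in CTRL sham and 34.6, 21.8, 25.2 and 41.7 in CTRL MCAo. In YT-iKO sham it had 28.2, 18.04, 16.5 and 26.7 CPM, and in YT-iKO MCAo 27.4, 23.9, 22.4 and 37.1 CPM. YT-iKO sham replicates 2 and 3 were the lowest of the 16 libraries and CTRL MCAo replicate 4 the highest. Psmb9 (ENSMUSG00000096727; chromosome 17, 34181987 to 34187764, minus strand) had 17.7, 21.4, 35.0 and 27.5 CPM in CTRL sham and 23.8, 20.04, 21.8 and 27.4 in CTRL MCAo. Its levels in YT-iKO were 25.6, 21.2, 18.3 and 25.4 CPM for sham, and for MCAo 17.9, 23.2, 19.6 and 25.4 CPM. The CTRL sham libraries alone spanned the full range of Psmb9 over the 16 libraries. Psmb10 (ENSMUSG00000031897; chromosome 8, 105935735 to 105938444, minus strand) had 27.9, 29.6, 32.8 and 32.6 CPM in CTRL sham and 34.9, 22.9, 17.8 and 36.8 in CTRL MCAo. The sham libraries of YT-iKO had 29.0, 22.5, 19.4 and 31.3 CPM and its MCAo libraries 23.4, 19.9, 20.98 and 36.1 CPM. No 2 groups were separate for any of the 3 subunits.

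For MCAo in CTRL, MCAo in YT-iKO, genotype after sham and genotype after MCAo, the log2 fold change of Psmb8 was 0.08, 0.31, −0.39 and −0.15 (SE 0.24 for genotype after sham). Psmb9 had −0.13, −0.08, −0.16 and −0.11 (SE 0.21), and Psmb10 −0.13, −0.03, −0.27 and −0.16 (SE 0.24). The constitutive counterparts had log2 fold changes of −0.07 (Psmb5), −0.02 (Psmb6) and −0.02 (Psmb7) for MCAo in CTRL, and of −0.25, −0.28 and −0.05 for genotype after sham. Per exon length, Psmb8 stood at 0.822, 0.940, 1.19 and 0.814 of Psmb5 in the CTRL sham libraries and at 0.938, 0.977, 1.049 and 1.16 in CTRL MCAo. In YT-iKO the ratio was 0.838, 0.783, 0.925 and 0.876 after sham and 0.683, 1.24, 1.07 and 0.916 after MCAo. YT-iKO MCAo replicates 1 and 2 had the lowest and the highest of these 16 ratios. Psmb9 was at 0.405 ± 0.101, 0.392 ± 0.0726, 0.446 ± 0.0258 and 0.401 ± 0.193 of Psmb6 (mean ± SD, n = 4), the first 2 values for CTRL after sham and MCAo and the last 2 for YT-iKO. Psmb10 was above Psmb7 in every library, with ratios of 2.94 ± 0.484, 2.67 ± 0.735, 2.50 ± 0.404 and 2.37 ± 0.413 in that order. All 3 ratios overlapped in all 4 comparisons between 2 groups, and being ratios within a library they do not depend on the scaling.

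**Figure D2:**
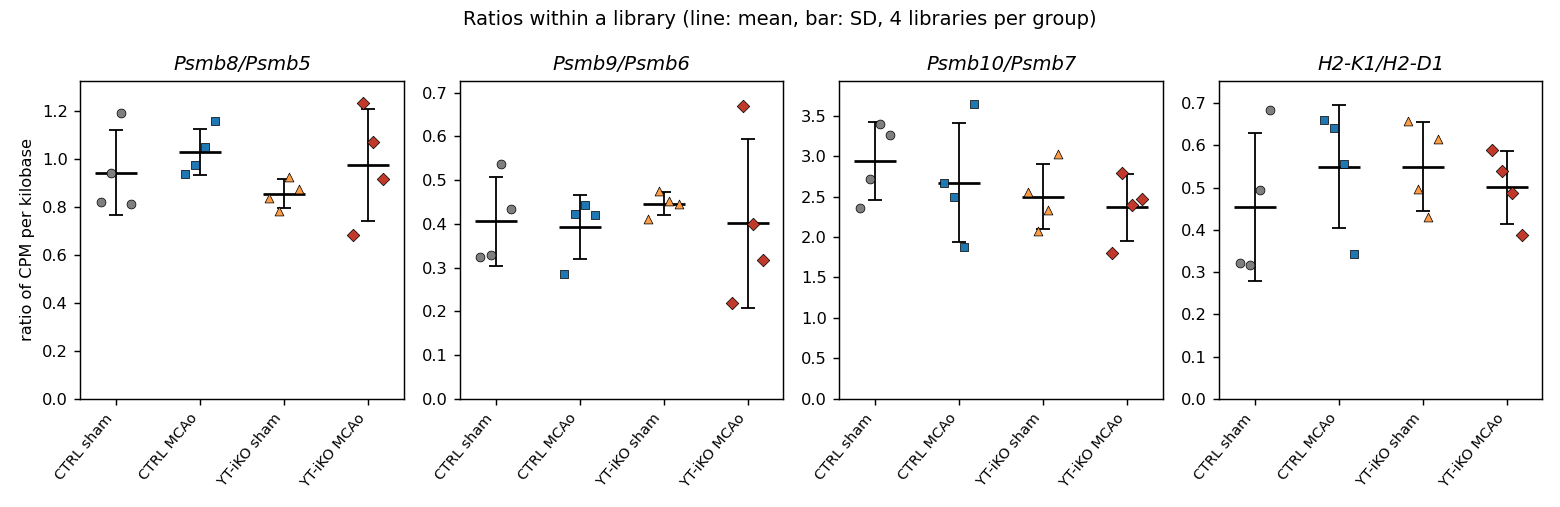
Ratio of CPM per kilobase of exon within each library for the 3 immunoproteasome subunits over their constitutive counterparts and for H2-K1 over H2-D1, with 4 libraries per group as points, the mean as a line and the SD as a bar. The groups of each comparison of 2 overlap in each panel, and Psmb10 is above Psmb7 in all 16 libraries.

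Nlrc5 (ENSMUSG00000074151; chromosome 8, 94434356 to 94527272, plus strand) encodes the activator that drives class I promoters. It had 89.4, 90.2, 166 and 108 CPM in CTRL sham and 92.5, 97.3, 89.4 and 156 in CTRL MCAo. In YT-iKO sham it had 95.3, 129.9, 76.8 and 103 CPM, and in YT-iKO MCAo 85.7, 129, 105 and 178 CPM. CTRL sham replicate 3, CTRL MCAo replicate 4 and YT-iKO MCAo replicate 4 were high within their groups, and all groups overlapped. The log2 fold change of Nlrc5 was −0.06 (SE 0.27) and 0.30 (SE 0.27) for MCAo in CTRL and YT-iKO, and −0.16 (SE 0.27) and 0.19 (SE 0.27) for genotype after sham and MCAo.

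**Figure D3:**
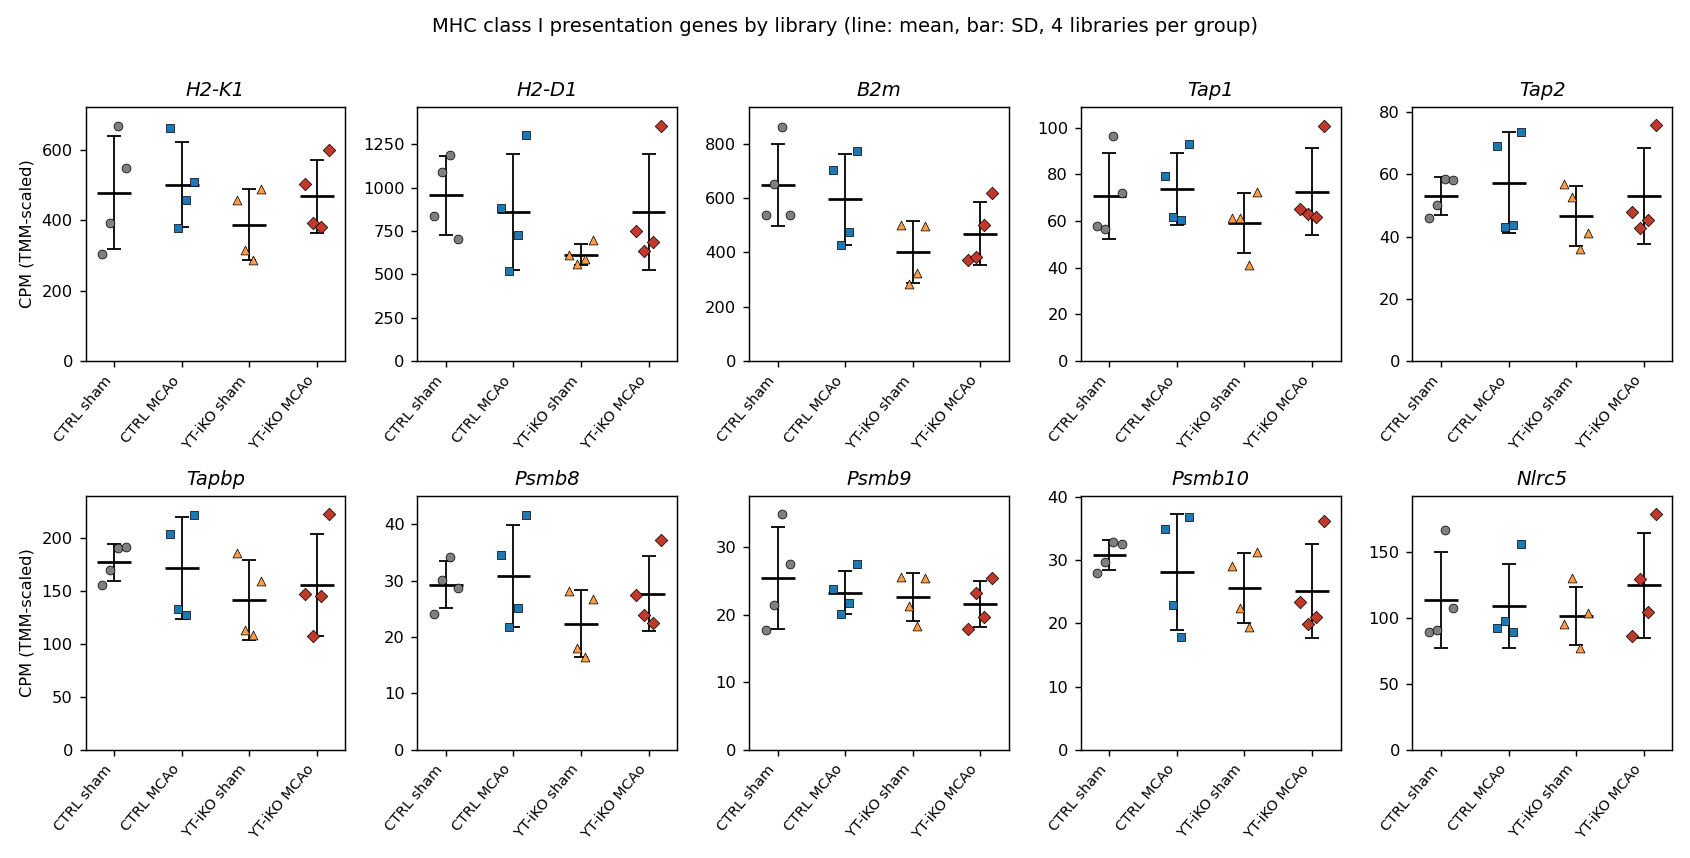
CPM of each of the 10 genes, scaled by TMM over all genes tested, with 4 libraries per group as points in order of replicate, the mean as a line and the SD as a bar. H2-D1 and B2m are the genes whose YT-iKO sham and CTRL sham libraries do not overlap on this scale, and YT-iKO MCAo replicate 4 is the highest library of its group for all 10 genes.

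In CTRL bECs, none of the 10 genes was called between MCAo and sham at an adjusted p under 0.1, against 67 of 31085 genes tested (0.216%). Log2 fold changes ran from −0.16 (H2-D1) to 0.11 (Tap2) with a median of −0.05. The median was 0.07 over all genes tested and −0.09 over the 9132 well-expressed genes. Of the 10 genes, 4 had a positive sign, and on the scale of well-expressed genes 6 had, as Tapbp and Nlrc5 changed sign. The median was −0.21 with 9 negative without CTRL MCAo replicate 4 and 0.12 with 7 positive without CTRL sham replicate 3, so its sign rested on single libraries. The lowest adjusted p was 0.9995 by edgeR, no gene had an unadjusted p under 0.05, and DESeq2 called none. No gene separated the groups, against 4.14% of all genes tested. The 95% confidence intervals together reached from −0.77 to 0.64, so a change of 2-fold in either direction lay outside the interval of each of the 10 genes. Limma-voom with sample quality weights gave 3 calls, all lower after MCAo: H2-D1 (−0.60, adjusted p = 0.0311), Psmb10 (−0.40, 0.0745) and B2m (−0.44, 0.0852). All 10 genes were negative in it, from −0.60 to −0.09 with a median of −0.22, and in this comparison it called 24.2% of all genes tested. By edgeR, markers of fibroblasts were positive in 4 of 4 (median 1.10), pericytes in 6 of 7 (0.39), monocytes and neutrophils in 8 of 8 (0.35). Those of lymphocytes were positive in 6 of 7 (0.36), endothelial cells in 4 of 10 (−0.04) and red cells in 0 of 4 (−0.45). With the logarithm of summed receptor counts as a covariate (receptor covariate), the monocyte and neutrophil median was −0.00063 and the lymphocyte median 0.03. The part of these lists in the result was not tested.

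In YT-iKO bECs, again 0 of 10 genes were called between MCAo and sham, against 99 of all genes tested (0.318%), and 1.28% of all genes but none of the 10 separated the groups. Of the log2 fold changes, 8 were positive, up to 0.48 for H2-D1, and those of Psmb9 (−0.08) and Psmb10 (−0.03) were negative. The median was 0.25, beside −0.02 over all genes tested and 0.05 over well-expressed genes, of which 60.9% were positive. On the scale of well-expressed genes the same 8 genes were positive, with a median of 0.21. With the receptor covariate 8 were positive and the median was 0.16. In the same comparison pericyte markers were positive in 6 of 7 cases (median 0.60), with a sum of 531 to 841 CPM after sham and 478 to 1133 after MCAo. Fibroblast markers were positive in 3 of 4 (0.59), endothelial markers in 6 of 10 (0.11) and red cell markers in 0 of 4 (−0.97). Those of monocytes and neutrophils were positive in 3 of 8 (−0.28), lymphocytes in 4 of 7 (0.10) and leukocytes, microglia and macrophages in 4 of 11 (−0.12). The part of these lists in the result was not tested. Neither DESeq2 nor limma-voom called any of the 10, and no unadjusted p was under 0.05 by edgeR. In limma-voom the direction turned, with 3 genes positive, 7 negative and a median of −0.04. H2-D1 had the interval that reached furthest up, −0.13 to 1.10. On the scale of all genes tested, much of this depended on YT-iKO MCAo replicate 4, there the highest library of its group for all 10 genes. Without it the median was 0.06 and 6 genes were positive, with 0.17 for H2-D1, 0.09 for Tap1, 0.13 for Psmb8 and 0.06 for Nlrc5. Tap2 (−0.05) and Tapbp (−0.09) turned negative. On the scale of well-expressed genes this library was highest for 1 of 10 genes, and no library was left out on that scale. Without YT-iKO sham replicate 3 or 2 the median was 0.11 or 0.15, with 7 positive either way.

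Between YT-iKO and CTRL bECs after sham, all 10 log2 fold changes were below 0, with a median of −0.29 beside 0.11 over all genes tested, but none of the 10 was called at an adjusted p under 0.1 (0.0965% of all genes tested were). DESeq2 and limma-voom called none either. H2-D1 and B2m had an unadjusted p under 0.05, as had 1.1% of all genes tested in the same direction, and both separated the groups, against 3.85% of all genes. The other 8 genes lay between −0.39 (Psmb8) and −0.16 (Nlrc5). A negative sign was seen in 39.9% of all genes tested but in 79.2% of the 9132 well-expressed genes, whose median was −0.13. Of 10 endothelial markers, 10 were negative as well, with a median of −0.40 and a sum of 18340 to 19944 CPM in CTRL against 10892 to 18811 in YT-iKO. Of 11 leukocyte, microglia and macrophage markers 10 were positive, with a median of 0.18 and a sum of 18.2 to 31.3 CPM in CTRL and 17.7 to 44.96 in YT-iKO, but with the receptor covariate 4 were positive and the median was −0.02. Monocyte and neutrophil markers (7 of 8 positive, median 0.72), lymphocyte markers (7 of 7, 0.52) and red cell markers (4 of 4, 0.84) were mostly positive as well, with sums of at most 16.4, 22.9 and 36.0 CPM in these groups, and their medians with the covariate were 0.20, 0.02 and 0.94. Pericyte markers were negative in 6 of 7 cases (median −0.34), with a sum of 729 to 917 CPM in CTRL and 531 to 841 in YT-iKO, and had a median of −0.18 with the covariate. Smooth muscle (4 of 4 positive, median 0.48), oligodendrocyte (5 of 5, 0.41) and neuron markers (4 of 5, 0.48) had sums of at most 55.1, 29.03 and 34.8 CPM in these groups, and medians of 0.28, 0.35 and 0.07 with the covariate. Astrocyte markers were positive in 2 of 5 cases (median −0.13), and in 1 of 5 with the covariate (−0.32). Their sums did not overlap, with 76.5 to 92.4 CPM in CTRL and 48.0 to 66.9 in YT-iKO. Fibroblast markers were positive in 3 of 4 cases (0.25), with a median of 0.09 with the covariate. The part of any of these lists in the result was not tested. TMM factors from well-expressed genes shifted the median of all genes from 0.11 to 0.30 and that of the 10 genes to −0.14, at which all 10 were still below 0, from −0.53 for B2m to −0.01 for Psmb9. Summed receptor counts were 807 to 1044 CPM in CTRL sham and 789 to 2869 in YT-iKO sham. With the logarithm of this sum as a covariate, B2m was at −0.619 (unadjusted p = 0.00243, adjusted p = 0.249 by edgeR) and H2-D1 at −0.527 (unadjusted p = 0.00839, adjusted p = 0.441), and all 10 were negative. The median was −0.18 without CTRL sham replicate 3, with 2 positive, and −0.16 without YT-iKO sham replicate 3.

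After MCAo, none of the 10 genes was called by edgeR between the genotypes either (0.0708% of all genes tested were), with no unadjusted p under 0.05 and no call by DESeq2 or limma-voom. None of the 10 separated YT-iKO from CTRL, against 0.981% of all genes tested. Log2 fold changes ran from −0.34 (B2m) to 0.19 (Nlrc5) with a median of −0.12, beside 0.03 over all genes tested, and 8 of 10 were negative. Of the well-expressed genes 48.1% were negative, with a median of 0.01. Endothelial markers were negative in 9 of 10 cases (median −0.20, sum 13257 to 22740 CPM in CTRL and 10022 to 20019 in YT-iKO), pericyte markers in 7 of 7 (−0.19) and astrocyte markers in 5 of 5 (−0.35). Leukocyte, microglia and macrophage markers were positive in 8 of 11 cases (0.22), lymphocyte markers in 5 of 7 (0.12) and red cell markers in 3 of 4 (0.46). Monocyte and neutrophil markers were positive in 3 of 8 (−0.28), with a median of −0.41 with the receptor covariate. Smooth muscle markers were positive in 3 of 4 (0.24) and oligodendrocyte markers in 3 of 5 (0.24). The part of these lists in the result was not tested. H2-D1 was at 0.00, with an interval of −0.62 to 0.62. On the scale of well-expressed genes 9 were negative, as H2-D1 turned to −0.01. Without CTRL MCAo replicate 4 the median was 0.01 with 6 positive, and without YT-iKO MCAo replicate 4 it was −0.33 with 10 negative. Leaving out any other library gave a median of −0.23 to −0.06.

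The difference between the MCAo responses of the 2 genotypes was called by edgeR for none of the 10 genes and for 0% of all genes tested, of which 116 had an unadjusted p under 0.05. None of the 10 had an unadjusted p under 0.05, and neither DESeq2 nor limma-voom called any gene. All 10 differences were positive, from 0.05 (Psmb9) to 0.64 (H2-D1), with a median of 0.22. Positive differences were also found in 84.3% of well-expressed genes and 48.1% of all genes tested, and on the scale of well-expressed genes Tap2, Psmb9 and Psmb10 turned negative and the median was 0.08, as it was with the receptor covariate. Single libraries moved it further: the median was 0.00 with 5 of 10 positive without CTRL sham replicate 3, 0.03 with 6 positive without YT-iKO MCAo replicate 4, 0.05 with 7 positive without YT-iKO sham replicate 3, and 0.35 with 10 positive without CTRL MCAo replicate 4. It lay between 0.07 and 0.13 without YT-iKO sham replicate 2, CTRL MCAo replicate 2 or 3, CTRL sham replicate 4 or YT-iKO MCAo replicate 1, and was 0.34 without YT-iKO sham replicate 4. For H2-D1 the interval was −0.23 to 1.51 (unadjusted p = 0.143), which holds both no difference and one of more than 2-fold, and the value was 0.31 without YT-iKO MCAo replicate 4.

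**Figure D4:**
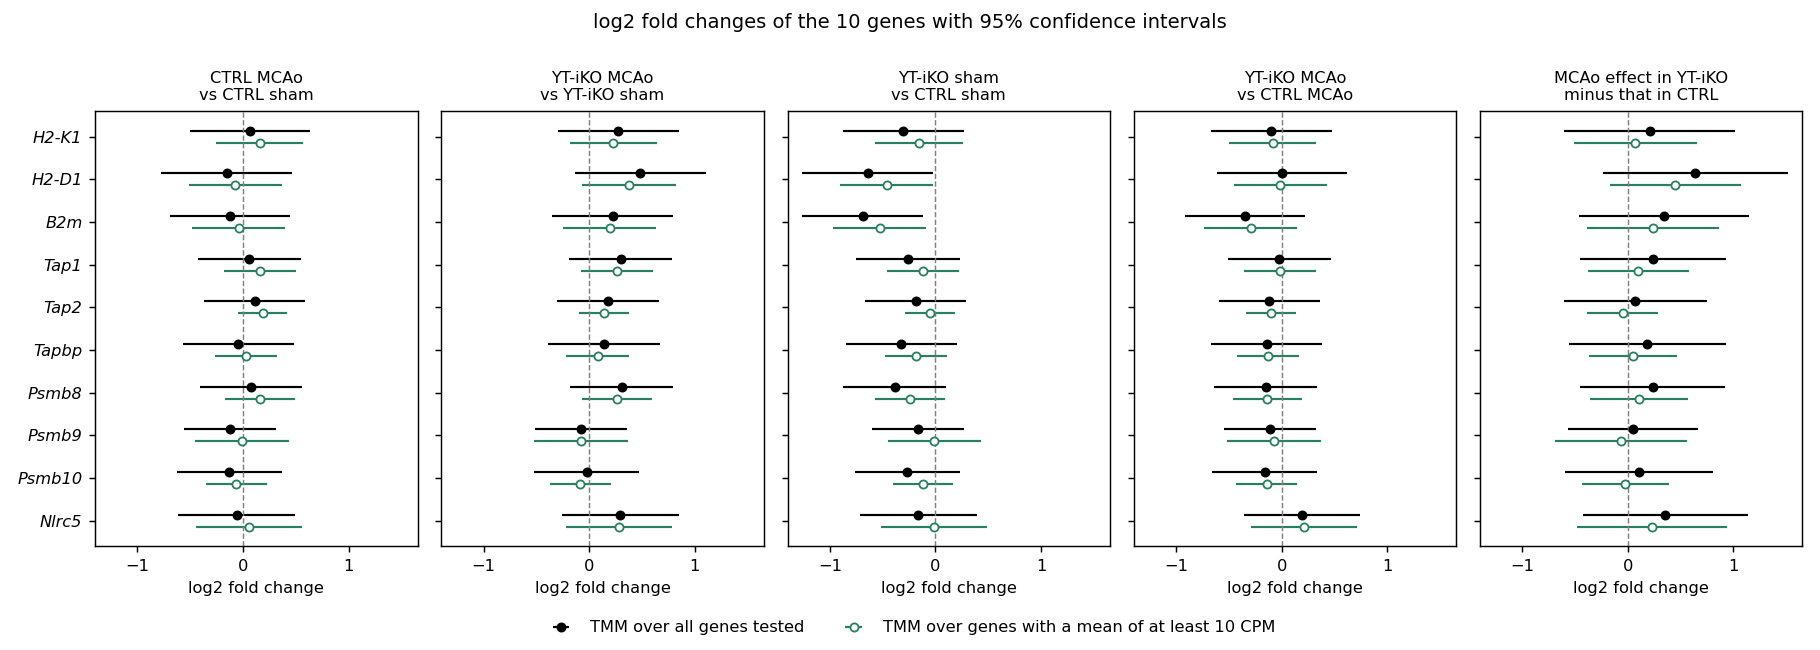
Log2 fold changes (x axis) of the 10 genes in the 4 comparisons of 2 groups and in the difference between MCAo responses, with 95% confidence intervals from edgeR, for TMM factors from all genes tested (filled) and from well-expressed genes (open). After sham, all 10 genes are below 0 on both scales, and B2m (−0.69 and −0.53) and H2-D1 (−0.64 and −0.46) are the genes whose intervals do not reach 0.

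The spread within groups and the order of libraries differed between the 2 scales. Over the 40 combinations of gene and group, the coefficient of variation was 7.71% to 39.0% with a median of 26.0% on the scale of all genes tested, and 7.05% to 33.1% with a median of 16.4% on that of well-expressed genes. YT-iKO MCAo replicate 4, with the least receptor background, was the highest library of its group for 10 of 10 genes on the first scale and for 1 of 10 on the second, where replicate 2, with the most background, was highest for 7. CTRL MCAo replicate 4 was highest for 9 and 8 genes on the 2 scales, and CTRL sham replicate 3 for 9 and 7. YT-iKO sham replicate 3 was lowest for 8 genes on the first scale and for 0 on the second. If reads fell evenly on exons at the density seen on receptor genes, they would make up at most 0.430% of the counts of H2-K1, H2-D1 or B2m in any library, but up to 5.57% for Tap1, 8.40% for Psmb9 and 8.65% for Psmb8, each in YT-iKO sham replicate 3.

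**Figure D5:**
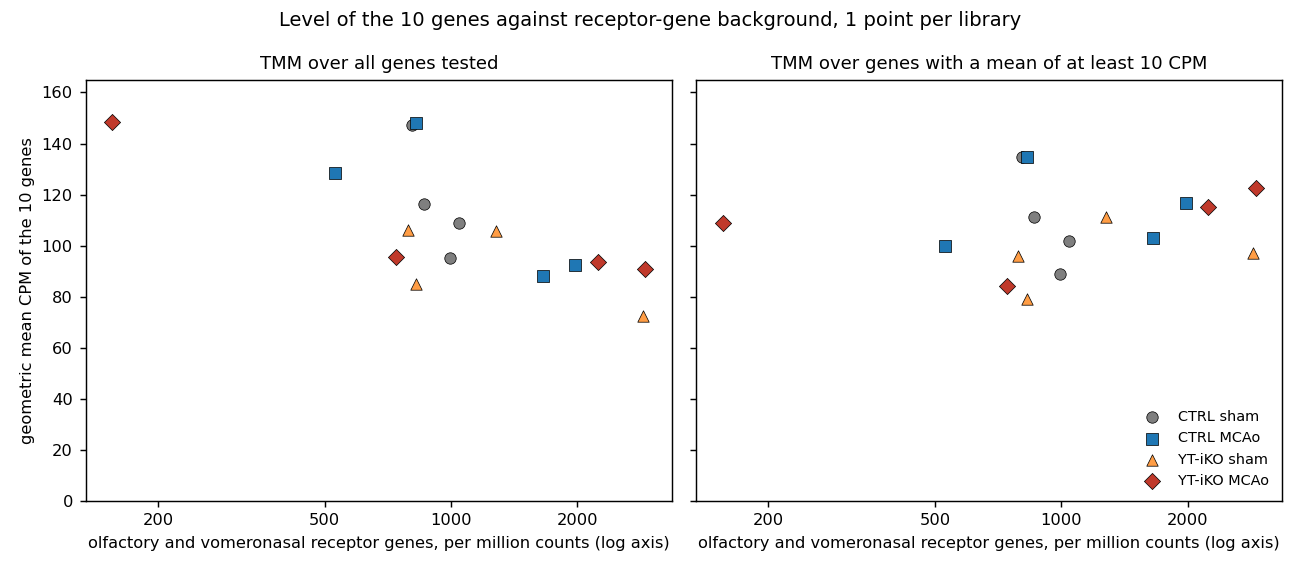
Geometric mean CPM of the 10 genes in each of the 16 libraries against the summed CPM of receptor genes before scaling (log axis), scaled by TMM over all genes tested (left) and over well-expressed genes (right), with groups as colours and shapes. On the left, the 5 libraries with the most receptor counts lie at 72.4 to 93.5 CPM, and on the right the same 5 lie at 97.1 to 123 CPM, among the others.

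The 10 genes were also compared with each other over the 16 libraries. The Pearson correlation of log2(CPM + 1) had a median of 0.71 over the 45 pairs of genes, from 0.41 (Nlrc5 with B2m) to 0.92 (Psmb10 with Tapbp), and a median of 0.55 on the scale of well-expressed genes. Libraries share their scaling factor and background, so these values describe the libraries and carry no test. Among the 9132 well-expressed genes, the 5 genes outside the 10 that were most like their average, by Pearson correlation over 16 libraries, were H2-Q4, a class I heavy chain (0.95), Wars1, a tryptophanyl-tRNA synthetase (0.91), Irf1, an interferon-inducible transcription factor (0.89), Mansc1 (0.89) and Ubac2 (0.89). On the scale of well-expressed genes H2-Q4 was again first (0.88), followed by the interferon-inducible GTPase genes Gbp2 (0.87) and Igtp (0.87), then Wars1 (0.84) and Iigp1 (0.80).

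The other genes of the route were tested in the same fit. Of 17 further class I and class I-like heavy chains, 10 genes of peptide loading and trimming, and 8 proteasome counterparts, activators and assembly factors, all of which were tested, none was called in any of the 5 comparisons by edgeR. The loading and trimming genes, which include the chaperones of the loading complex, had a median of −0.32 for genotype after sham, with 10 of 10 negative, and one of −0.17 with 8 of 10 negative on the scale of well-expressed genes. In the same comparison the other heavy chains had a median of −0.10 and 13 of 17 negative, which became 0.06 and 7 of 17 on that scale. All 7 genes of MHC class II, which presents peptides from outside the cell, were tested and none was called. Their transcripts were scarce, with 0.374 to 10.9 CPM for Cd74 and 0.513 to 5.33 CPM for H2-Ab1.

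Of 27 regulators and interferon signalling genes tested, Sting1, the adaptor of cytosolic DNA sensing, was the one called. It rose after MCAo from 5.18 ± 0.629 to 26.7 ± 9.05 CPM in CTRL (SD, n = 4), with a log2 fold change of 2.36 and an adjusted p of 0.00126 in edgeR. In YT-iKO it rose from 4.90 ± 1.49 to 21.8 ± 11.01 CPM (2.16, adjusted p = 0.00295 in edgeR). In a model of only the YT-iKO groups the second adjusted p was 0.112. Among 15 interferon-inducible genes, Cxcl10, a chemokine that attracts T cells, rose in YT-iKO bECs from 1.14 ± 0.196 to 5.97 ± 4.09 CPM (2.38, adjusted p = 0.0120 by edgeR). That call was lost without YT-iKO sham replicate 2 (adjusted p = 0.102) and in a model of only the 2 groups (0.318). In CTRL, Cxcl10 had 1.30 ± 0.274 CPM after sham and 1.87 ± 0.469 after MCAo and was not called. Between the genotypes after MCAo its log2 fold change was 1.67 with a 95% confidence interval of 0.83 to 2.52. Every YT-iKO library was above every CTRL library, but edgeR did not call it (unadjusted p = 0.000474, adjusted p = 0.378). Calls in this comparison depended on the method, with 22 of all genes tested by edgeR and 92 by DESeq2. The DESeq2 result for Cxcl10 is not given here, so its missing call holds for edgeR only. The difference between the MCAo responses of Cxcl10 was 1.86 (unadjusted p = 0.00434, adjusted p = 0.9999 by edgeR). Over the 15 genes, the median for MCAo was 0.15 in CTRL (12 positive) and 0.33 in YT-iKO (13 positive). For genotype it was −0.36 after sham (13 negative) and −0.30 after MCAo (12 negative, with Cxcl10 among the 3 positive). In the same order, the medians over all genes tested were 0.07, −0.02, 0.11 and 0.03. On the scale of well-expressed genes, the medians of the 15 genes were 0.23, 0.33, −0.21 and −0.23. By edgeR, none of the 10 class I genes was called in the comparisons in which Sting1 or Cxcl10 rose, whereas limma-voom called H2-D1, B2m and Psmb10 lower after MCAo in CTRL.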

How the data were processed

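RNA of sorted bECs was amplified with a SMART-Seq kit in 16 libraries. According to the methods and the submitters' processing notes, the authors mapped reads with STAR 2.7.8a to GRCm38 with the M12 release of GENCODE. What they deposited are raw read counts for each gene. The counting program, strand setting and filter are not given in the sources used here. Positions came from GENCODE M21, in which 36841 of 37003 identifiers were found, and promoters from RefSeq (GRCm38.p6).

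Counts were filtered with filterByExpr (minimum count 10, minimum total count 15), scaled by TMM and tested with edgeR 4.0.16 (R 4.3.3) by the quasi-likelihood test with all 4 groups in 1 model and no covariate. P values were adjusted by Benjamini-Hochberg over 31085 genes, and an adjusted p under 0.1 was called. A two-sided exact permutation test (70 assignments, log2(CPM + 1)) was added for single genes. Confidence intervals cover 95%. DESeq2 1.42.0, limma 3.58.1, RLE factors, TMM factors from genes averaging 10 CPM or more, other filters, a threshold of 0.05, models of 2 groups, a replicate block, receptor background (1466 autosomal olfactory and vomeronasal receptor genes) as a covariate, and each library left out were alternatives. The covariate with the second TMM scale was added after seeing the data. The fit was tested on simulated counts. The processing notes also name DESeq2, and no result of the authors' own comparisons was used.

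The genes and all lists were chosen with earlier results of these data known. All 10 genes are named in every comparison; of other lists, those called, up to 5 per list and comparison; and the 5 genes most correlated with the average of the 10. Within each group, no 2 libraries were alike within sampling noise.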

Additional observations from a re-analysis of the deposited data

Results flagged for a closer look

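The values of 2 libraries stood apart from the other 3 libraries of their group by Dixon's criterion on log2(CPM + 1), out of 40 combinations of gene and group. Chance alone gives about 1 in 20 groups. Tap1 had 100.8 CPM in YT-iKO MCAo replicate 4, above the other libraries of that group. Nlrc5 had 156 CPM in CTRL MCAo replicate 4, also above the rest of its group. YT-iKO MCAo replicate 4 has the lowest receptor background of all libraries, and on the scale of well-expressed genes its Tap1 value was 74.0 CPM, within the range of its group. On that scale Nlrc5 in CTRL MCAo replicate 4 was at 141.6 CPM, against 71.8 to 113 in the rest of its group.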

How the results depend on the processing

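Across 11 alternative settings and the 16 fits without 1 library each, the number of the 10 genes called stayed at 0 in all 5 comparisons, with 1 exception: limma-voom with sample quality weights called 3 for MCAo in CTRL, and the cause was not tested. A model of only 2 groups cannot give the difference between responses. Leaving out a library gave 0 to 0 called genes in each comparison. The sign of the uncalled fold changes was less stable: it differed from the reported one in 27 of 270 values for MCAo in CTRL, 12 of 270 for MCAo in YT-iKO, 2 of 270 for genotype after sham, 27 of 270 for genotype after MCAo and 36 of 260 for the difference between responses. The 2 for genotype after sham were Psmb9 and Nlrc5 without CTRL sham replicate 3. With a replicate block, 0 of the 10 genes were called in any comparison. Their median log2 fold changes with the block were −0.10, 0.24, −0.32, −0.11 and 0.24, with the comparisons in the order above. Replicate numbers were not read as pairs in the main model. Deviations of the 24 pairs of libraries with the same number had a median correlation of 0.259, with 17 of 24 above 0.1. The median was −0.128 for 72 pairs with different numbers. Libraries with the same number were thus more alike, and what they share was not tested. The block moved the genes called over all genes from 67 to 119 for MCAo in CTRL, 99 to 132 for MCAo in YT-iKO, 30 to 40 and 22 to 34 for genotype after sham and after MCAo. Over the settings other than leaving out a library, these 4 counts ran from 48 to 7538, 17 to 5626, 24 to 201 and 20 to 354, and without 1 library from 26 to 162, 37 to 203, 12 to 43 and 11 to 47. For the difference between responses the count was 0, or 1 with the receptor covariate on either scale. Sting1 (2.02) and Cxcl10 (2.37) were not called after MCAo in YT-iKO in models of only those 2 groups, nor Cxcl10 without YT-iKO sham replicate 2 (2.31). The 10 genes had 254 or more counts in every library. Which differences could be seen depended on the spread within groups, and this spread differed between the scales. On the scale of all genes tested, log2 fold changes for comparisons of 2 groups had standard errors of 0.21 to 0.30. The median coefficient of variation was 26.0% on that scale and 16.4% on the scale of well-expressed genes. How much of the spread came from the pools and how much from the scaling was not tested.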
